A study of Mus musculus with 24 samples.

Results

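The side difference of a mouse, taken as the log2 signal of the ipsilateral hemisphere minus that of the contralateral hemisphere, was compared between 8 mice with middle cerebral artery occlusion and 4 mice with sham surgery. All 24 arrays of the series entered it, as 12 within-mouse differences for each of 22206 probe sets that were not array controls. The comparison asks which transcripts were shifted to the operated side by the occlusion beyond what the surgery and the 2 hemispheres themselves gave. It was made with all 12 mice and again without any mouse that had an array whose log2 signals had an SD under 2.

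All animals were C57Bl/6j males, 8 to 10 weeks old. In the MCAO group the artery was blocked from within the vessel for 90 min and then reopened for 30 min, and the sham group had the control surgery. All brains were taken 2 h after the induction of ischaemia, after saline perfusion, and split into an ipsilateral (IP) and a contralateral (CL) hemisphere with 1 array each. A whole hemisphere holds tissue inside and outside the territory of the artery, all cell types of the brain and all its regions on that side, so in these samples fewer cells of a type and less RNA per cell cannot be told apart.

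The middle cerebral artery feeds much of the lateral cortex and striatum, and its closure depolarises neurons, floods the tissue with calcium and stresses vessel walls. Within minutes to hours such stimuli switch on immediate early genes, which need no new protein to be transcribed. Many of these encode transcription factors (the Fos, Jun, Egr and Nr4a families and Npas4), others encode secreted signals, vascular matrix proteins and the phosphatases that end MAP kinase signalling, while misfolded protein switches on the heat shock chaperones through a separate factor.

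Both hemispheres of MCAO mouse 3 and of sham mouse 1 gave arrays that stood apart. Their 4 arrays had SDs of 1.44 to 1.54 against 2.33 to 2.41 in the other 20, median correlations of 0.328 to 0.55 with those 20 against 0.981 to 0.989, and 675 to 1127 probe sets above background against 8209 to 10013. The background of an array was the level that 95% of its negative controls stayed under. The side difference exceeded 1 in either direction in 27.9% of probe sets in MCAO mouse 3 and 29.1% in sham mouse 1, and in 0.68% to 2.22% in the other 10 mice. Results are therefore given for all 12 mice and for the other 10, which are 7 MCAO and 3 sham mice. Over the 10 mice the side differences of different mice correlated little across probe sets, with medians of 0.04 among MCAO pairs and -0.01 among sham pairs, as a description over genes that are not independent.

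No probe set passed an adjusted p of 0.05 in either set of mice with the within-mouse differences. With all 12 mice and mouse as a random block 1 passed, Ccn1 (0.0045% of those tested). For the within-mouse differences of all 12 mice limma's smallest Benjamini-Hochberg adjusted p was 0.453, and with the 10 it was 0.289. At an unadjusted p under 0.05 there were 1138 probe sets with all mice (5.12%), 587 of them with a higher side difference after MCAO (2.64%) and 551 with a lower one (2.48%). With the 10 mice there were 1312 (5.91%), 622 higher (2.8%) and 690 lower (3.11%). The MCAO mice lay wholly above the sham mice for 64 probe sets (0.288%) and wholly below for 40 (0.18%) with all mice, and for 237 (1.07%) and 211 (0.95%) with the 10.

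Which probe sets filled those counts differed between the directions. With all mice, 41 of the 64 higher probe sets but 8 of the 40 lower ones were above background on at least 50% of the arrays of at least 1 group. With the 10 mice the numbers were 143 of 237 and 65 of 211. Over all probe sets tested, 9506 of 22206 met that criterion. A probe set can meet it through 1 group alone, such as the group where it was high. The counts of the 2 directions are therefore a description. The genes with the smallest p among measurable higher probe sets were immediate early genes, vascular response genes and a chemokine, and they are described next by role.

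**Figure D1:**
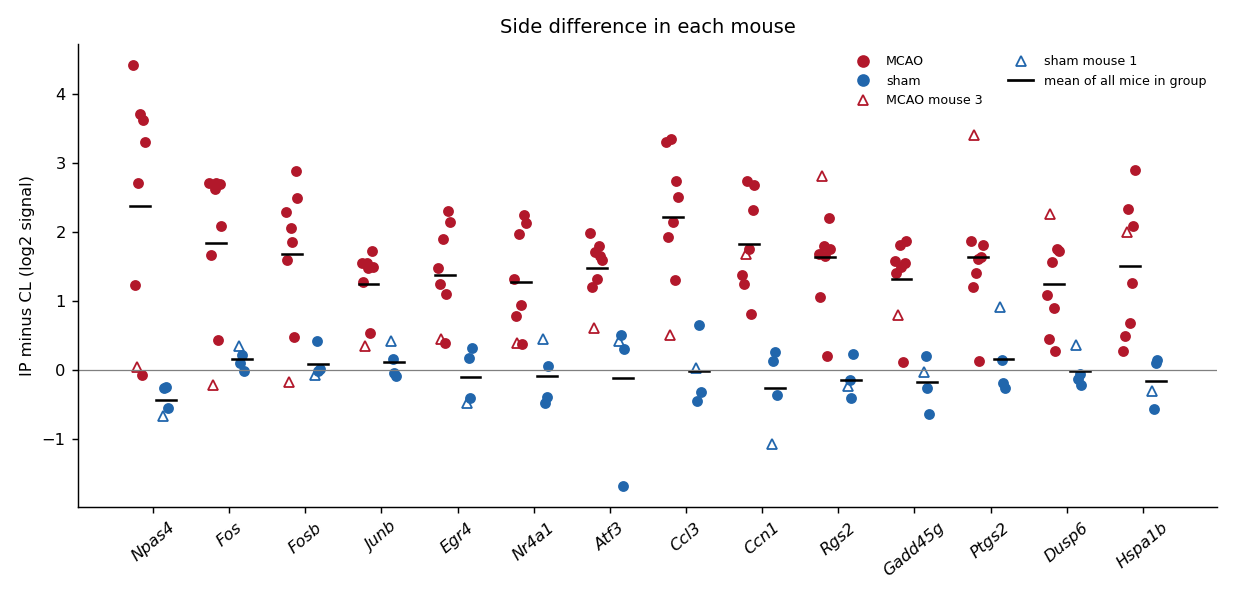
Side difference (IP minus CL, log2 signal, vertical axis) of 14 genes in each of 8 MCAO mice (red) and 4 sham mice (blue). Open triangles are MCAO mouse 3 and sham mouse 1, and black bars are the means of all mice in a group. Most MCAO points lie above 1 and most sham points near 0, while MCAO mouse 6 is the low filled point for Npas4 (-0.08) and Gadd45g (0.11).

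Among all 22206 probe sets, Ccn1 had the smallest p with all mice. It encodes a matricellular protein secreted by vessel and stromal cells. Its side differences in the MCAO mice ran from 0.80 through a median of 1.72 to 2.74. In sham mice 1 to 4 they were -1.08, 0.13, 0.25 and -0.36. The lowest MCAO mouse thus lay above the highest sham mouse, and this held with both sets of mice. The difference of the means was 2.09 ± 0.36 (SE, log2; adjusted p = 0.453) with all mice and 1.83 ± 0.38 (adjusted p = 0.291) with the 10. With mouse as a random block over all 12 mice its adjusted p was 0.0304 in limma. That fit used 1 correlation of 0.782 between the hemispheres of a mouse for all probe sets. It was estimated with the low-SD arrays included.

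Ccl3, a chemokine made mainly by microglia and macrophages, was above background on 7 of 8 MCAO ipsilateral arrays and on 0 arrays of the other 3 groups. Its side differences in the MCAO mice were 0.50 at the lowest, 2.32 at the median and 3.34 at the highest, and in sham mice 1 to 4 they were 0.03, -0.45, 0.65 and -0.32. The lowest MCAO value was that of mouse 3, whose arrays did not reach background for this gene, and among the 10 mice the groups did not overlap. Because the contralateral side was not above background, the ipsilateral excess in MCAO mice is a lower bound, with the contralateral signal taken at the background level or at its own value, whichever was greater: at least 1.54-fold with all mice and at least 2.12-fold with the 10. The fitted difference between surgeries was 2.24 ± 0.44 (adjusted p = 0.522) with all mice and 2.50 ± 0.40 (adjusted p = 0.289) with the 10. With the 10 mice and the 11103 brighter probe sets, a setting added after the data were seen, 2 passed (0.018%). They were Ccl3 and Junb, at an adjusted p of 0.0423 each. Brightness was the mean over arrays of all groups, so the group where Ccl3 was high helped to choose it. Limma's smallest p there, 7.29e-06, was above the 4.50e-06 needed for a first call, so the 2 calls rest on each other. They are therefore a description. Over all settings the adjusted p of Ccl3 ran from 0.0149 to 1.00 and that of Junb from 0.00374 to 1.00.

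Rgs2, which shortens G protein signalling, had side differences of 0.20, 1.71 and 2.81 (lowest, median and highest) in the MCAO mice. Sham mice 1 to 4 gave -0.24, -0.15, -0.42 and 0.23. MCAO mouse 6 was the lowest and fell just inside the sham range, and the other MCAO mice were at 1.05 or above. The difference was 1.78 ± 0.35 with all mice and 1.58 ± 0.34 with the 10. Gadd45g, a stress and activity gene linked to DNA demethylation and growth arrest, had a similar order of mice: mouse 6 was at 0.11, the median was 1.51 and the highest was 1.86, against -0.03, 0.19, -0.26 and -0.64 in the sham mice, with a difference of 1.50 ± 0.30 and 1.63 ± 0.32. Adjusted p was 0.522 for both with all mice and 0.291 for both with the 10.

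The list of immediate early transcription factors had 28 measured genes, 23 of them above background by the criterion given. Their median difference between surgeries was 0.64 with all mice and 0.60 with the 10, against 0.00 over all probe sets in both. At an unadjusted p under 0.05, 16 of the 28 were higher and 0 lower in either set of mice. Over all probe sets, the background for this and every later list, 2.64% were higher with all mice and 2.8% with the 10. The shares wholly above the sham mice were 0.288% and 1.07%. The MCAO mice lay wholly above the sham mice for 6 of the 28 with all mice (Jun, Egr4, Nr4a3, Npas4, Atf3 and Klf6) and for 12 with the 10, which added Fos, Fosb, Junb, Egr2, Nr4a1 and Btg2; Klf6 stands outside the naming rule and is named for completeness. None passed adjustment in either fit. The list was chosen with earlier results of these arrays known, so its count is not independent evidence of a direction.

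Npas4, a transcription factor found in neurons and driven by calcium entry, had the greatest difference among those named. The MCAO side differences were -0.08, 3.00 and 4.41 (lowest, median and highest), and the sham values were -0.67, -0.26, -0.25 and -0.56. Every MCAO mouse lay above every sham mouse, but mice 6 (-0.08) and 3 (0.04) were near 0. The difference was 2.80 ± 0.71 (adjusted p = 0.891) with all mice and 3.05 ± 0.76 (adjusted p = 0.481) with the 10. Npas4 was not above background on either side in the sham mice, nor on the contralateral side in MCAO mice 1, 3 and 5. The side differences of those mice, the highest MCAO value included, and the fitted differences therefore rest on levels that were not measured.

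Fos, the inducible partner of Jun proteins in the AP-1 factor, had MCAO side differences of -0.22, 2.36 and 2.70 and sham values of 0.35, 0.10, 0.22 and -0.02. MCAO mice 3 (-0.22) and 6 (0.43) were low and the other 6 were at 1.66 or more. The difference was 1.67 ± 0.48 with all mice and 2.03 ± 0.42 with the 10. Among the 3 sham mice of the 10, Fos was above background in 1 on each side. On the contralateral side it was not above background in MCAO mouse 5, which had the highest side difference (2.70). Fosb, its relative, had values of -0.18, 1.95 and 2.87 in MCAO mice and of -0.08, 0.42, -0.02 and 0.01 in sham mice, a difference of 1.60 ± 0.45 and 1.81 ± 0.39, again with mice 3 and 6 lowest.

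Junb had MCAO side differences of 0.34, 1.48 and 1.72 and sham values of 0.42, 0.15, -0.05 and -0.09. With all mice the groups overlapped through MCAO mouse 3 and sham mouse 1, and with the 10 they did not. The difference was 1.13 ± 0.27 with all mice and 1.37 ± 0.22 with the 10. Jun itself, another subunit of AP-1, differed by 0.70 ± 0.20 and 0.80 ± 0.16. Its MCAO side differences were close together, from 0.47 to 1.06, and its sham values were 0.41, -0.17, 0.07 and -0.19.

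Among the zinc finger Egr factors, Egr4 had MCAO values of 0.38, 1.36 and 2.30 and sham values of -0.49, 0.17, -0.41 and 0.32, without overlap in either set of mice and with a difference of 1.47 ± 0.35 and 1.48 ± 0.35. Egr2 differed by 1.03 ± 0.41 with all mice and 1.45 ± 0.32 with the 10. Egr1, a factor with a measurable level on every sham array of the 10 mice, differed by 0.23 ± 0.34 with all mice and 0.66 ± 0.22 with the 10, and its estimate was -0.01 with all arrays scaled to one SD. Sham mouse 1 had an Egr1 side difference of 1.97, above every MCAO mouse, and the other sham mice were at 0.29, -0.13 and -0.15.

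The orphan nuclear receptors Nr4a1 and Nr4a3 differed by 1.36 ± 0.36 and 1.23 ± 0.31 with all mice and by 1.67 ± 0.37 and 1.03 ± 0.31 with the 10. Nr4a1 had MCAO side differences of 0.38, 1.12 and 2.24 and sham values of 0.45, -0.48, -0.40 and 0.06, so only sham mouse 1 reached the MCAO range. Btg2, an antiproliferative gene also induced by p53, differed by 0.85 ± 0.29 with all mice and 1.20 ± 0.24 with the 10; its sham values were 1.08 in mouse 1 and 0.08, 0.14 and 0.11 in the others.

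Atf3, a stress-induced factor, was above background on 7 of 8 MCAO ipsilateral arrays and on 0 arrays of the other groups. Its side differences were 0.61, 1.62 and 1.98 in the MCAO mice and 0.42, 0.51, -1.69 and 0.30 in the sham mice, without overlap. The ipsilateral excess in MCAO mice was at least 1.44-fold with all mice and at least 1.94-fold with the 10. The fitted difference, 1.60 ± 0.36 with all mice and 1.90 ± 0.37 with the 10, includes the value of -1.69 in sham mouse 3. Both sides of every sham mouse and the contralateral side of every MCAO mouse were not above background. The sham values, the fitted differences and the absence of overlap therefore rest in part on levels that were not measured.

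**Figure D2:**
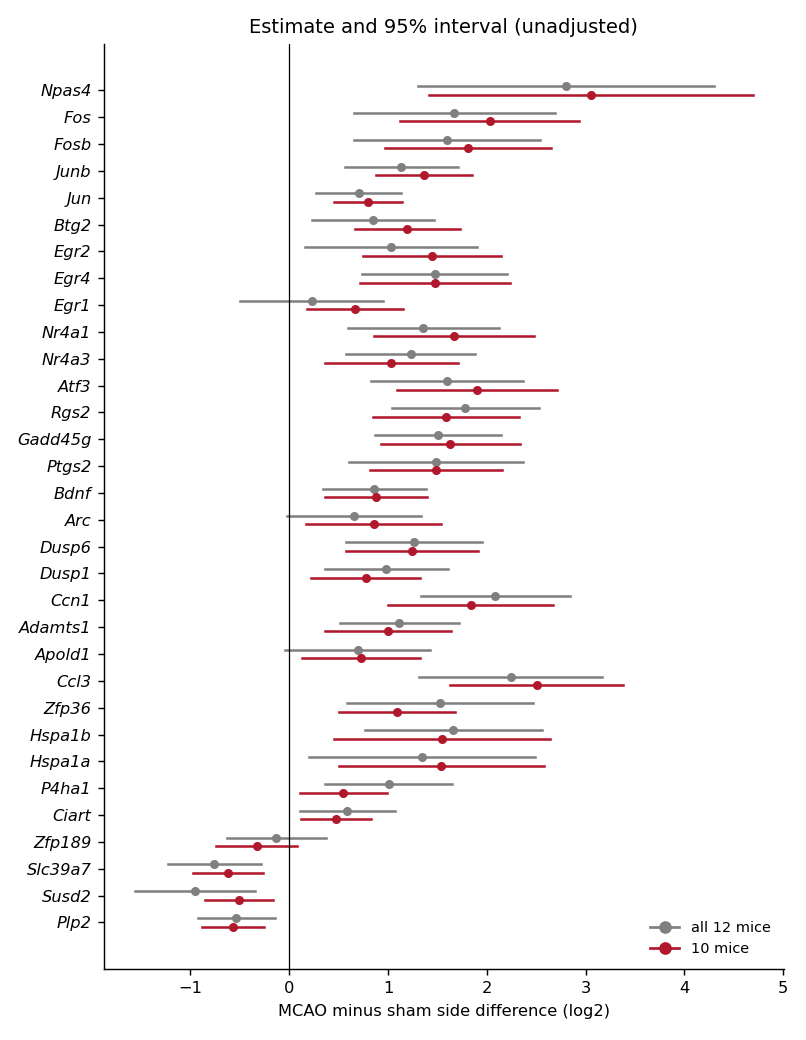
MCAO minus sham side difference (log2, horizontal axis) with its 95% interval from limma, not adjusted for the number of probe sets, for the main genes named. Grey is the fit of all 12 mice and red that of 10 mice. Npas4 has the widest interval and the estimates for Slc39a7, Susd2 and Plp2 are below 0.

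The activity-dependent effectors, 23 measured genes that neurons transcribe after synaptic activity, had a median of 0.42 with all mice and 0.44 with the 10. At an unadjusted p under 0.05, 7 were higher with all mice and 11 with the 10, and 0 were lower. The MCAO mice lay wholly above the sham mice for 1 gene with all mice, Bdnf, and for 3 with the 10. Bdnf, a neurotrophin, had MCAO side differences of 0.15, 0.58 and 1.46 and sham values of -0.40, -0.26, -0.04 and -0.23, with a difference of 0.86 ± 0.25 and 0.88 ± 0.24. Ptgs2, the inducible cyclooxygenase of prostaglandin synthesis, differed by 1.48 ± 0.42 and 1.48 ± 0.31. Arc, which removes glutamate receptors from synapses, differed by 0.65 ± 0.32 and 0.86 ± 0.31, with MCAO mouse 6 at 0.06 and the 3 sham mice of the 10 at 0.53, 0.13 and 0.39.

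Of 15 MAP kinase phosphatases and feedback inhibitors, 6 were higher at an unadjusted p under 0.05 with all mice and 3 with the 10, and 0 were lower. Their median was 0.37 and 0.47. Dusp6, a phosphatase of ERK, had MCAO values of 0.27, 1.32 and 2.26 and sham values of 0.36, -0.13, -0.07 and -0.23, a difference of 1.26 ± 0.33 and 1.24 ± 0.31, and was the 1 list member without overlap among the 10 mice. Dusp1 differed by 0.98 ± 0.29 and 0.77 ± 0.25. Its sham values were -0.96 in mouse 1 and 0.12, 0.24 and 0.11 in the others, and MCAO mouse 6 (0.16) lay among the latter.

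Of 20 vascular, protease and matrix genes, 4 were higher at an unadjusted p under 0.05 with all mice and 5 with the 10, while the list median was 0.13 and 0.10. Ccn1 led the list. Thbs1, which encodes a platelet and matrix thrombospondin, also had no overlap, but it was above background on 0 arrays, so no fold is given. Adamts1, a protease of matrix proteoglycans, differed by 1.11 ± 0.28 and 1.00 ± 0.29, with MCAO values from -0.08 to 1.49 that overlapped the sham values of -0.83, -0.55, 0.36 and -0.46. It was above background on 0 of 4 ipsilateral and 1 of 4 contralateral sham arrays. Apold1, an endothelial gene above background on 0 sham arrays, differed by 0.69 ± 0.35 and 0.73 ± 0.28.

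Of 24 cytokines and chemokines, 4 were above background. The list median was 0.07 with all mice and 0.00 with the 10, and 1 and 2 members were higher at an unadjusted p under 0.05. Beside Ccl3, the second was Ccl4, its neighbour in the chemokine family, which was above background on 0 arrays. Of 20 genes of the NF-kB pathway and adhesion, 3 were higher in each set of mice, 1 was lower with the 10, and the median was 0.00 in both. Zfp36, whose protein speeds the decay of cytokine mRNAs, had no overlap among the 10 mice; its difference was 1.52 ± 0.45 with all mice, where sham mouse 1 stood at -2.24, and 1.09 ± 0.27 with the 10. Zfp36 was above background on 0 sham arrays and on 4 of 8 contralateral MCAO arrays, so these differences rest in part on levels that were not measured. Tnfaip3, an inhibitor of NF-kB signalling, was above background on 3 arrays, all of the MCAO ipsilateral group.

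Of 16 heat shock chaperones, 2 were higher at an unadjusted p under 0.05 with all mice and 3 with the 10, 1 was lower with the 10, and the median was -0.06 and 0.15. The members without overlap were Hspa1b with all mice and Hspa1b and the co-chaperone Dnajb4 with the 10. Hspa1a and Hspa1b encode the inducible Hsp70 proteins from neighbouring, nearly identical genes on chromosome 17, and how far their 2 probe sets share signal was not tested. A stretch of each promoter, ending 31 bases before the start of transcription, is shown because both genes differed by 1.54 between surgeries with the 10 mice; capitals mark the match to GAANNTTC, the core of the element bound by heat shock factor. Sequences are from RefSeq (GRCm38.p6), minus strand, at chr17:34959269-34959388 for Hspa1b and chr17:34972187-34972306 for Hspa1a.
Hspa1b: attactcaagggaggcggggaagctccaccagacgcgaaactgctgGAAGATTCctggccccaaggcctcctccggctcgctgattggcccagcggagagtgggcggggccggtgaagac
Hspa1a: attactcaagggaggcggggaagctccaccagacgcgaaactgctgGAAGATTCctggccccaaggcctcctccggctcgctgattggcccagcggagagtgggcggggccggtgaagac
The printed stretches were identical in 120 of 120 bases, and the windows of 250 bases before the start in 247 of 250. Hspa1b had MCAO side differences of 0.28, 1.62 and 2.90 and sham values of -0.31, -0.58, 0.09 and 0.14, with no overlap. The difference was 1.66 ± 0.43 with all mice and 1.54 ± 0.51 with the 10. Hspa1a differed by 1.34 ± 0.54 and 1.54 ± 0.48; its side difference was -1.11 in MCAO mouse 3, where Hspa1b stood at 2.00, and in the other MCAO mice it lay between 0.34 and 2.64. Mice 4, 7 and 8 were above 2 for both genes and mice 1, 2 and 5 were under 0.70 for both. On the contralateral side Hspa1b was above background in MCAO mice 1 and 2 and in no other, so the higher side differences are against levels that were not measured.

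Counts of other programmes at an unadjusted p under 0.05 stand against 2.64% higher and 2.48% lower over all probe sets with all mice. With the 10 mice those shares were 2.8% and 3.11%. Of 18 genes of the unfolded protein and integrated stress response 2 were higher with all mice and 3 with the 10, 0 were lower, and the median was -0.02 and 0.09. Among 25 HIF-1 targets and glycolysis genes 1 was higher in each set of mice, P4ha1, a collagen prolyl hydroxylase. The list median was 0.05 and 0.08. P4ha1 differed by 1.01 ± 0.30 with all mice and 0.55 ± 0.20 with the 10, and its groups did not overlap; sham mouse 1 stood at -1.55 and the other sham mice at -0.04, 0.05 and 0.08. Of 19 circadian clock genes 1 was higher with all mice and 3 with the 10, and the median changed sign, from -0.15 to 0.04. Ciart, a repressor of the clock, differed by 0.59 ± 0.23 and 0.47 ± 0.16, and Per2 by 0.55 ± 0.31 and 0.45 ± 0.21.

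The 18 sterol biosynthesis genes had 1 member higher with all mice and 3 with the 10, with a median of 0.12 and 0.20. Of 18 glucocorticoid-responsive genes 1 was higher and 1 lower with all mice, 2 were higher and 0 lower with the 10, and the median was -0.26 and -0.11. Of 20 p53 targets and apoptosis regulators, and of 17 antioxidant and Nrf2 target genes, 2 were higher in each set of mice. Of 21 oxidative phosphorylation subunits and 13 cytosolic ribosomal proteins 0 were past that p in either direction in either set.

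**Figure D3:**
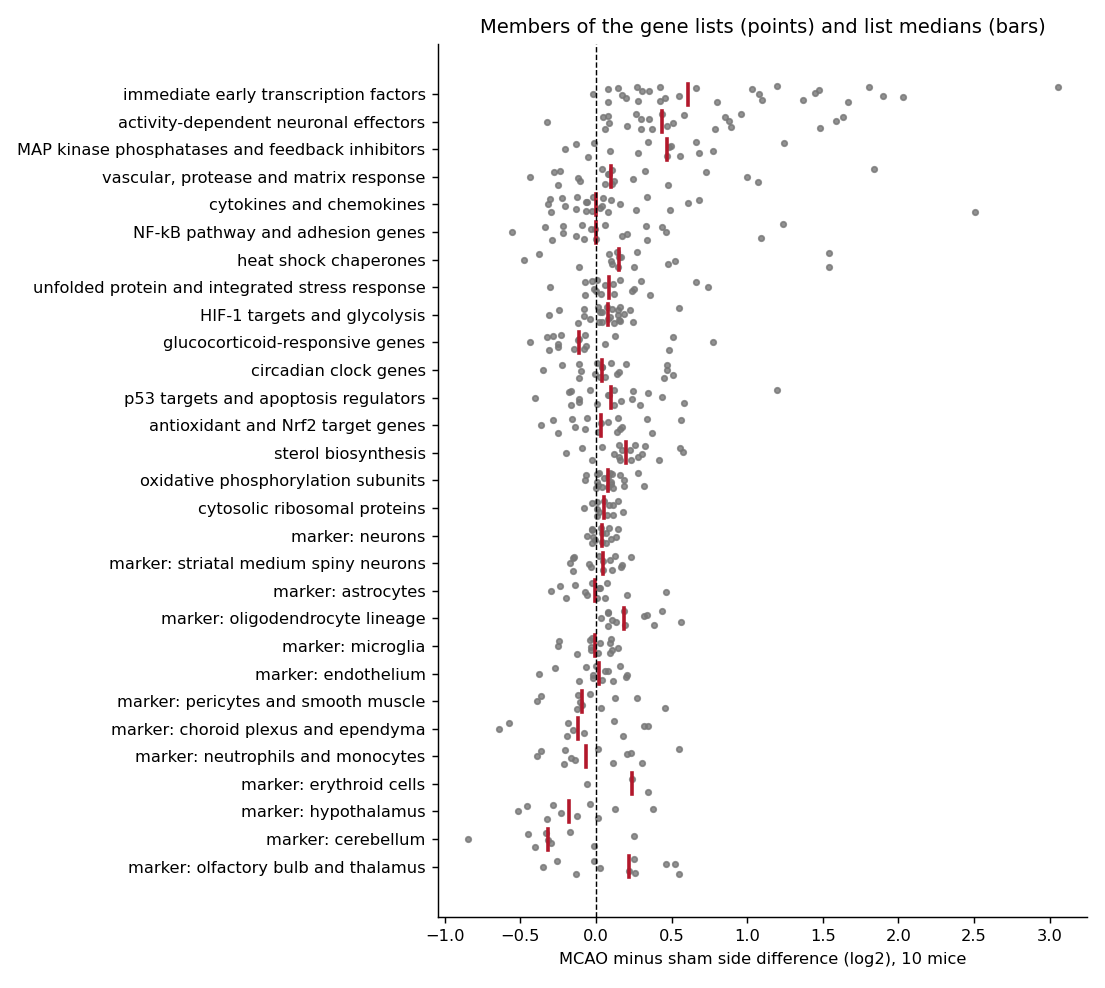
MCAO minus sham side difference (log2, 10 mice, horizontal axis) of the measured members of each of 29 gene lists (points; vertical scatter only separates them), with list medians as red bars. The dashed line is the median of all probe sets (0.00). The medians of the immediate early, effector and MAP kinase feedback lists are 0.60, 0.44 and 0.47.

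Other genes had a lower side difference after MCAO than after sham surgery, and none passed adjustment in these 2 fits. Slc39a7, a zinc transporter of the endoplasmic reticulum, had MCAO values of -0.93, -0.11 and 0.13 and sham values of 0.66, 0.19, 0.76 and 0.61, without overlap. The difference was -0.76 ± 0.22 with all mice and -0.62 ± 0.16 with the 10. Plp2, a membrane protein, had MCAO values from -0.35 to 0.07 and sham values of 0.17, 0.20, 0.54 and 0.40, a difference of -0.54 ± 0.19 and -0.57 ± 0.15. In both genes the sham mice were higher on the ipsilateral side and the MCAO mice lay around 0.

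Susd2 differed by -0.95 ± 0.29 with all mice and -0.51 ± 0.16 with the 10, since MCAO mouse 3 (-1.18) and sham mouse 1 (1.63) held the extreme values. Mgp, an inhibitor of calcification, differed by -0.67 ± 0.23 and -0.62 ± 0.23, and Oprk1, the kappa opioid receptor, by -0.95 ± 0.33 and -0.43 ± 0.21. The MCAO and sham mice overlapped for both. Mgp was above background on 2 of 8 and Oprk1 on 5 of 8 MCAO arrays of each side. Zfp189, a zinc finger gene, had a lower ipsilateral signal in 7 of 8 MCAO mice and in 4 of 4 sham mice, with MCAO values of -0.98, -0.60 and 0.12 and sham values of -0.74, -0.25, -0.50 and -0.24. Its difference between surgeries was -0.13 ± 0.24 with all mice and -0.33 ± 0.19 with the 10, and 0.01 with arrays scaled to one SD. Of the 7 MCAO mice among the 10, Zfp189 was above background in 2 ipsilaterally and 5 contralaterally. For Susd2 the numbers were 4 and 5. The differences of both genes therefore rest in part on levels that were not measured.

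Marker lists of brain cell types were set beside these results. In the 10 mice the median difference was 0.04 for 15 neuronal markers, 0.04 for 15 striatal projection neuron markers, -0.01 for 14 astrocyte markers, -0.01 for 14 microglial markers and 0.02 for 14 endothelial markers, with 0, 0, 1, 0 and 0 members past an unadjusted p of 0.05. With all 12 mice the neuronal median was -0.33, and the side difference of the list's median gene was 1.83 in sham mouse 1 and 1.25 in MCAO mouse 3 against -0.07 to 0.16 in the other mice. The 15 neuronal markers were all above background. Markers of neutrophils and monocytes, of choroid plexus and of hypothalamus had 0 members above background.

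The oligodendrocyte list had a median of 0.24 with all mice and 0.19 with the 10, and 2 and 4 of its 13 members were higher at an unadjusted p under 0.05. Cldn11, a tight junction protein of myelin, had no overlap in either set of mice, with MCAO values from -0.02 to 0.40 and sham values of -1.05, -0.09, -0.19 and -0.15. Sox10, the lineage transcription factor, differed by 0.79 ± 0.25 and 0.56 ± 0.19. The 9 cerebellar markers had a median of 0.02 with all mice and -0.32 with the 10, and Zic2 (-0.50 ± 0.19 and -0.45 ± 0.16) had no overlap. Zic2 was above background on 0 sham arrays and Pcp2, a Purkinje cell gene whose groups did not overlap among the 10 mice, on 0 arrays. Of 11 measured markers of olfactory bulb and thalamus 5 were above background and 1 was higher at an unadjusted p under 0.05 in each set of mice, and the list median was 0.17 and 0.22. The side difference of that list's median gene lay between 0.01 and 0.27 in the 7 MCAO mice and between -0.23 and -0.05 in the 3 sham mice, and it was 0.24 in sham mouse 1. The member past that p was Ramp3, a receptor activity modifying protein, which had no overlap in either set and differed by 1.26 ± 0.40 and 0.52 ± 0.18. The part of these regional markers in the other results was not tested.

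The difference between surgeries can be split into the ipsilateral and the contralateral level. In the 10 mice, of 26 genes chosen by name with earlier results of these arrays known, 24 had an ipsilateral level in every MCAO mouse above every sham mouse (1.4% of all probe sets), and 5 had a contralateral level so placed (0.779% of all probe sets). The contralateral mean was above that of sham in 22 of the 26, and the share over all probe sets was not counted. The median excess of MCAO over sham was 1.84 on the ipsilateral and 0.59 on the contralateral side, genes with sham levels not above background included. Over all probe sets these medians were 0.008 and 0.010. The 5 genes were Ccn1, Nr4a1, Dusp1, Apold1 and Ciart, and for them the side difference subtracts part of the ipsilateral excess.

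For Ccn1 the ipsilateral levels of the 7 MCAO mice were 9.10, 9.56 and 9.76 (lowest, median and highest, log2 signal) and the contralateral levels 6.79, 7.48 and 8.84. The sham levels were 6.08, 6.10 and 6.17 ipsilaterally and 5.95, 5.85 and 6.54 contralaterally. The MCAO mice thus exceeded the sham mice by 3.34 on the ipsilateral and by 1.51 on the contralateral side. Ciart exceeded sham by 1.12 and 0.65. For Fos the signal of the MCAO mice was 3.23 above that of sham on the ipsilateral and 1.20 on the contralateral side, and for Apold1 it was 1.77 and 1.04. Fos was above background in 1 of the 3 sham mice on each side and Apold1 in 0, so for both genes the excess is against levels that were largely not measured.

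**Figure D4:**
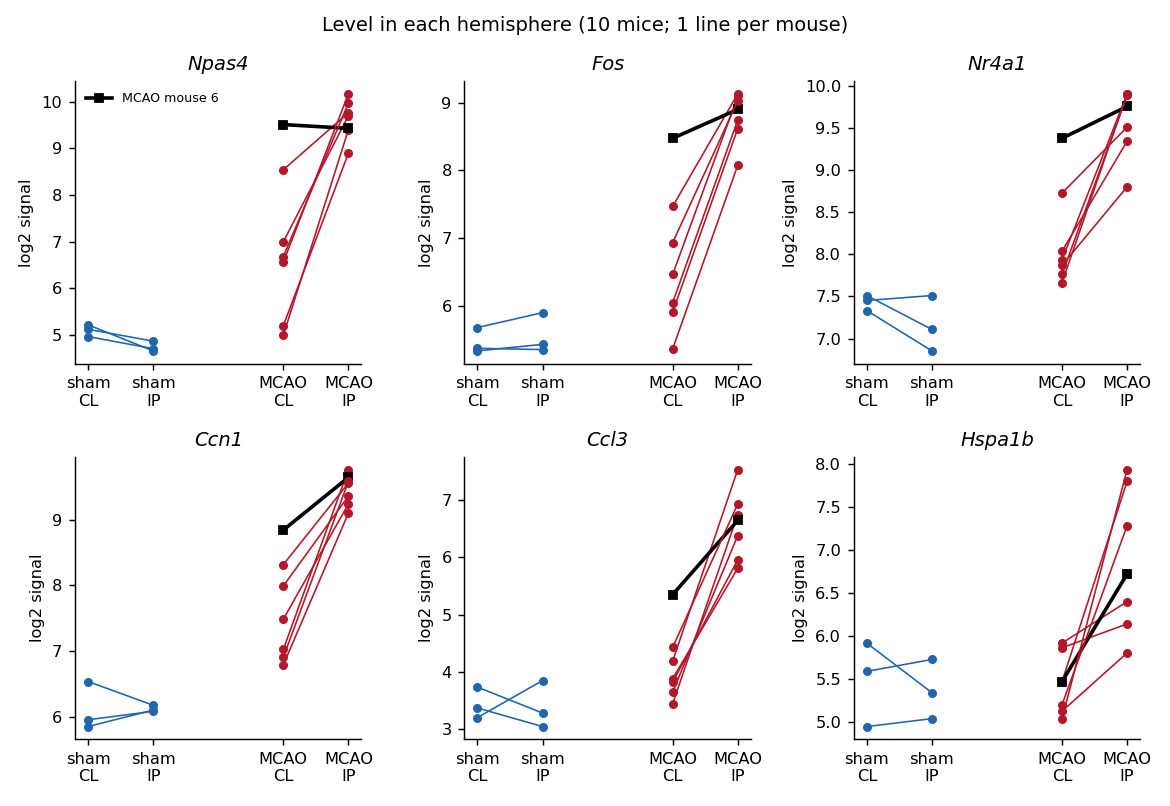
Log2 signal (vertical axes) of 6 genes in the contralateral (CL) and ipsilateral (IP) hemisphere, 1 line for each of 3 sham mice (blue) and 7 MCAO mice (red, with MCAO mouse 6 in black). For Npas4 and Fos the ipsilateral points lie close together (8.90 to 10.17 and 8.08 to 9.13) and the contralateral points are spread out, while for Hspa1b the ipsilateral points are spread out.

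For Npas4 and Fos the MCAO mice differed more on the contralateral than on the ipsilateral side. Over the 7 MCAO mice Npas4 had ipsilateral levels of 8.90, 9.70 and 10.17 and contralateral levels of 4.99, 6.68 and 9.51, with SDs of 0.42 and 1.65. Fos had ipsilateral levels of 8.08, 8.90 and 9.13 and contralateral levels of 5.37, 6.47 and 8.47, with SDs of 0.37 and 1.05. Of these contralateral levels, 2 of Npas4 and 1 of Fos were not above background. The contralateral SD was above the ipsilateral SD in 17 of the 26 genes and in 54.9% of all probe sets, while in the immediate early list the ipsilateral SD was the larger in 13 of 28. The list thus had a share near that of all probe sets. Hspa1b had ipsilateral levels of 5.81, 6.72 and 7.94 (SD 0.82) and contralateral levels of 5.04, 5.47 and 5.92 (SD 0.35). Its contralateral signal was above background in 2 of the 7 mice, so the SDs of its sides are not compared.

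**Figure D5:**
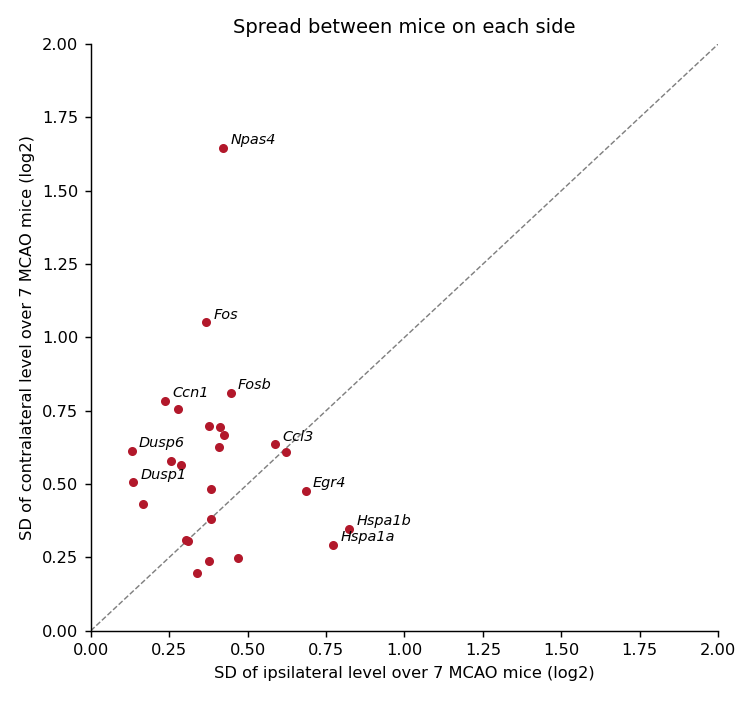
SD over 7 MCAO mice of the ipsilateral (horizontal axis) and the contralateral (vertical axis) log2 signal of 26 genes, with the line of equal SD dashed. Npas4 (0.42 and 1.65) and Fos (0.37 and 1.05) lie above the line, and Hspa1b (0.82 and 0.35) and Hspa1a lie below it, with a contralateral signal above background in 2 and 3 of the 7 mice.

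In 1 animal both sides were high. MCAO mouse 6 had the highest contralateral level in 17 of the 26 genes and the lowest side difference in 18, while its ipsilateral level was the highest in 4. A high contralateral level lowers the side difference by construction, so the first 2 counts are not independent. The share of all probe sets with mouse 6 so placed was not counted. Its contralateral and ipsilateral levels were 9.51 and 9.43 for Npas4, 8.47 and 8.90 for Fos, 9.41 and 9.61 for Rgs2 and 7.88 and 7.98 for Gadd45g. MCAO mouse 2 was next for Npas4 and Fos, with contralateral levels of 8.54 and 7.47. Mouse 6 was singled out after its values were seen.

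Leaving out each of the 10 mice in turn, a setting added after the data were seen, changed the calls for this mouse alone. Without it 8 probe sets (0.036%) passed an adjusted p of 0.05, all higher after MCAO: Junb, Btg2, Fos, Gadd45g, Ptgs2, Fosb, Ccl3 and Rgs2. Their differences ran from 1.36 ± 0.14 for Btg2 to 2.70 ± 0.34 for Ccl3, and the smallest adjusted p was 0.00374. Mouse 6 had the lowest side difference of the 7 MCAO mice for Junb, Fos, Gadd45g, Ptgs2, Fosb, Ccl3 and Rgs2. Leaving it out raised these differences by construction, so the calls are not independent evidence. In the other 9 such fits 0 passed, with the smallest adjusted p between 0.073 and 0.522. With all 12 mice, leaving out any 1 mouse gave 0 calls and a smallest adjusted p between 0.0514 and 0.949.

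Pairs of 6 genes (Fos, Npas4, Rgs2, Ccl3, Ccn1 and Hspa1b) were compared over the side differences of the MCAO mice, 15 pairs in all, with exact permutation tests. Over the 8 mice Fos and Npas4 had a Pearson r of 0.928 (p = 0.00154, adjusted p = 0.0126) and a Spearman rho of 0.929 (p = 0.00223, adjusted p = 0.0335), by exact permutation. Without the 2 mice farthest from the median of Fos, mice 3 and 6, r was 0.816. Fos and Ccl3 had r = 0.914 (exact permutation p = 0.00169, adjusted p = 0.0126) and rho = 0.69 (p = 0.0694, adjusted p = 0.287), and r was 0.622 without those 2 mice. Npas4 and Ccl3 had r = 0.839 (exact permutation p = 0.00942, adjusted p = 0.0471) and rho = 0.667 (p = 0.0831, adjusted p = 0.287), and r was 0.508 without those 2 mice. Contralateral Npas4 was not above background in MCAO mice 1, 3 and 5. Among the 7 MCAO mice without low-SD arrays, contralateral Fos was not above background in mouse 5. Ccl3 was not above it on the contralateral side of any MCAO mouse, nor on either side of mouse 3. The correlations of these genes therefore rest in part on levels that were not measured.

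Over the 7 mice no pair passed, and Fos and Npas4 had r = 0.926 (exact permutation p = 0.00516, adjusted p = 0.0595) and rho = 0.929 (p = 0.00675, adjusted p = 0.101). Without mice 2 and 6, the 2 farthest from the median of Fos, r was 0.331 over 5 mice. Leaving out the extreme mice narrows the range, so these 5 cannot tell whether the relation holds among them.

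Of the pairs with Rgs2, those with Fos, Npas4 and Ccl3 changed most without MCAO mouse 3. Over the 8 and the 7 mice Rgs2 had r = 0.255 and 0.885 with Npas4. With Ccn1 it had 0.568 and 0.787, and with Hspa1b 0.405 and 0.358. Fos and Rgs2 had r = 0.0624 over the 8 mice (exact permutation p = 0.875, adjusted p = 0.992) and rho = -0.05 (p = 0.935, adjusted p = 0.935). Over the 7 mice r was 0.939 (exact permutation p = 0.0131, adjusted p = 0.0595) and rho 0.429 (p = 0.354, adjusted p = 0.53), and without mice 2 and 6 r was 0.152. Rgs2 and Ccl3 had r = 0.00472 over the 8 mice (exact permutation p = 0.992, adjusted p = 0.992) and rho = 0.214 (p = 0.619, adjusted p = 0.767). Over the 7 mice r was 0.796 (exact permutation p = 0.028, adjusted p = 0.0699) and rho 0.821 (p = 0.0341, adjusted p = 0.171), and without mice 2 and 6 r was 0.0684. Fos and Hspa1b had r = -0.10 over the 8 mice (exact permutation p = 0.801, adjusted p = 0.992) and rho = -0.21 (p = 0.619, adjusted p = 0.767). Over the 8 mice Ccn1 and Hspa1b had r = 0.769 (exact permutation p = 0.0329, adjusted p = 0.124) and rho = 0.762 (p = 0.0368, adjusted p = 0.276).

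Promoter letters were read for the 22 of the 26 genes that the RefSeq table held, over 250 bases before the start and on both strands. The cAMP response element TGACGTCA was in 1 of them, Dusp1, and in 1.77% of 27025 genes. The AP-1 site TGAGTCA was in 0, against 5.16% of genes, GAANNTTC in 3 (Hspa1a, Hspa1b and Zfp189) against 7.73%, and the CArG box bound by serum response factor in 2 (Egr2 and Zfp36) against 1.62%. The stretches around the matches in Dusp1 (chr17:26508573-26508662, minus strand), Zfp36 (chr7:28379244-28379333, minus strand) and Egr2 (chr10:67537446-67537535, plus strand) are shown because they hold the matches to the cAMP response element and the CArG box found among the 22 genes; capitals mark the match. The Egr2 stretch is from the first of its 5 listed starts.
Dusp1: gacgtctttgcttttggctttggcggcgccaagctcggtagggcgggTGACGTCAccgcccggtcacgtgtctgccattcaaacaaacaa
Zfp36: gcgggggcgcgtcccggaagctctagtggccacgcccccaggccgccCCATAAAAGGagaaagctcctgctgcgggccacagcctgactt
Egr2: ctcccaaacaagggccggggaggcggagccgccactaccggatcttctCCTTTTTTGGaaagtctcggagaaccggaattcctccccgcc
With the 10 mice the differences of these genes were 0.77 ± 0.25 for Dusp1, 1.09 ± 0.27 for Zfp36 and 1.45 ± 0.32 for Egr2. Hspa1a and Zfp189, which both hold GAANNTTC, had differences of 1.54 ± 0.48 and -0.33 ± 0.19. A match is a description of these letters, and binding was not measured.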

How the data were processed

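Per the submitters' processing notes, the authors made the values with Affymetrix Expression Console. Version, normalization and annotation build: not given in the sources used here. Deposited rows hold log2 probe-set signals (the log2 scale is inferred from values of 0.25 to 12.78) and number 29129, of which 6923 array controls were left out. Of 22206 tested, 19572 named 1 gene in the platform annotation and 2634 were unnamed here. A gene with several probe sets was taken at the one with the highest mean.

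Limma 3.58.1 in R 4.3.3 was fitted to the 12 within-mouse differences with eBayes and Benjamini-Hochberg adjustment over all 22206; this equals the side by surgery term with mouse as a fixed block. Both hemispheres of a number come from 1 animal per the labels, and their deviations from the group means correlated at 0.11 to 0.31 in the 10 mice. The mice and arrays limit the precision. The fit was tested on simulated data. Named genes were, among probe sets above background with 1 gene, the 10 with the smallest p in each direction in each fit, up to 4 members of each of 29 lists, and 26 names, and the text describes some of these; the members, lists and names were chosen with earlier results of these data known. Alternatives were other blocks, eBayes with trend and robust, brighter probe sets, quantile normalization, centring, scaling, array weights, 1-gene probe sets and leaving out mice. Figures used Python 3.11.15 with matplotlib 3.10.9.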

Additional observations from a re-analysis of the deposited data

Results flagged for a closer look

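Side differences of single mice far from the others of their group were found in 8 of 90 groups examined. The nominal rate of that rule by chance is about 1 in 20, and the rate in these data was not measured. Of the 8 groups, 7 were set apart by MCAO mouse 3 or sham mouse 1. These mice were already set aside for low array SD, so the 7 are not independent of that choice or of each other. The count of 8 in 90 is therefore not weighed against the nominal rate. The SD of the side difference over all probe sets was 0.953 in MCAO mouse 3, against 0.312 to 0.399 in the other MCAO mice, and 0.992 in sham mouse 1, against 0.358 to 0.384 in the other sham mice.

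Sham mouse 1 had a side difference of -0.96 for Dusp1 (others 0.11 to 0.24), -1.55 for P4ha1 (others -0.04 to 0.08), 1.08 for Btg2 (others 0.08 to 0.14) and -1.05 for Cldn11 (others -0.19 to -0.09). MCAO mouse 3 had -1.18 for Susd2 (others -0.41 to 0.10). The remaining one was Atf3 in sham mouse 3, at -1.69 against 0.30 to 0.51 in the other sham mice, where this gene was not above background.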

How the results depend on the processing

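The estimates of the 44 genes examined kept their direction in 1530 of 1532 alternative values. With arrays scaled to the same SD, Egr1 was at -0.00827 and Zfp189 at 0.0102; both were near 0 before and the cause was not tested. Among correlations, those of Hspa1b with Fos and Npas4 were 0.0788 and 0.0666 without the 2 mice with low-SD arrays. That of Fos with Rgs2 moved from 0.0624 to 0.939.

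The number of probe sets past the adjusted threshold was 0 in most settings, 1 with mouse as a random replicate block (Ccn1, adjusted p = 0.0304), 2 without the 2 mice and with only brighter probe sets, and 0 to 8 leaving out a further mouse. With no replicate block, which ignores the pairing, it was 0 and the number at an unadjusted p under 0.05 was 106 against 1138; Ccn1 with the random block was the single call that a change of block made. That number was 460 with only brighter probe sets and 686 with the 2 mice also left out, fewer probe sets being tested, and 809 to 1474 leaving out a mouse. The number of probe sets without overlap was 104; it was 448 without the 2 mice, 57 with only brighter probe sets, and 133 to 358 leaving out a mouse, fewer mice making overlap rarer. Low array SD limits the 12-mouse values, and 3 sham mice limit the others. The brighter probe sets were chosen with the MCAO ipsilateral arrays included, so the 2 calls among them are not independent of the comparison.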
